A study of Mus musculus with 6 samples.

Results

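Phosphofructokinase, pyruvate kinase and lactate dehydrogenase come as isoenzymes encoded by separate genes or splice forms, and 10 genes were selected by symbol to describe which of them brown and white fat carry: the phosphofructokinase subunits Pfkl, Pfkm and Pfkp, the regulators Pfkfb1, Pfkfb3 and Pfkfb4, the pyruvate kinase gene Pkm, the lactate dehydrogenase genes Ldha and Ldhb, and the lactate transporter Slc16a1. In the platform annotation 18 of 45037 probe sets carried 1 of these symbols alone, and they covered 9 of the genes, out of 18193 on the array. No probe set was matched to Pfkfb1, which is not analysed here. Brown fat came from the interscapular depot and white fat from the epididymal depot of adult C57BL/6 males, 10 to 12 weeks old. The animals were untreated and kept at ambient temperature, and the labels name no genetic change. Each tissue was read on 3 Affymetrix mouse 430_2 arrays, 1 per sample, described as biological replicates from 3 mice. Each kind of fat came from 1 depot only, so fat type and depot cannot be told apart.

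In glycolysis, phosphofructokinase makes the committed step. It works as a tetramer of liver-type (Pfkl), muscle-type (Pfkm) and platelet-type (Pfkp) subunits, and PFKFB enzymes set the level of its strongest allosteric activator. Pyruvate kinase closes the pathway, after which lactate dehydrogenase interconverts pyruvate and lactate. The A subunit (Ldha, muscle type) is typical of tissues that release lactate and the B subunit (Ldhb, heart type) of oxidative tissues that use it. The monocarboxylate transporter MCT1 (Slc16a1) carries lactate and pyruvate across the plasma membrane. Brown fat takes up much glucose for its size when it makes heat, whereas white fat mainly stores and releases fatty acids.

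Present calls covered 35.61% to 37.48% of probe sets on brown arrays and 45.19% to 45.75% on white arrays, and the median deposited signal was 37.6 to 39.4 in brown and 52.1 to 52.5 in white. The actin 3'/5' signal ratio, which rises as RNA degrades, was 1.36 to 2.24 in brown, highest on replicate 2, and 1.19 to 1.73 in white. All 8 brown adipocyte markers were higher in brown, with Ucp1 at 12940 ± 267 in brown and 26.1 ± 31.7 in white (SD, n = 3 each), and all 6 white adipocyte markers were higher in white, with Lep at 54.2 ± 19.2 in brown and 1743 ± 16.5 in white. The array files thus carry their tissue's markers, whereas in the authors' deposited series table the columns named for brown show the low Ucp1, and that table was not used. Actb, a common control gene, had 7341 ± 1316 in brown and 11440 ± 599 in white. All signals below are quantile-normalised intensities on a linear scale. Differences are brown minus white on the log2 scale with 95% limma intervals, and a gene is called where the adjusted p is under 0.05. Each gene is read from its brightest tested probe set, and testing required a present call on 3 or more of the 6 arrays. Probes bind with unequal strength, so a signal is compared between tissues and never between genes.

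Of the 9 genes measured, 7 were higher in brown fat and 2 in white fat. Ldhb, Pfkl, Slc16a1 and Pkm were 4.25 to 10.7 times as bright in brown, Pfkp 2.79 and Pfkm 2.75 times, and Ldha 1.35 times. Pfkfb3 and Pfkfb4 were higher in white, Pfkfb3 not under every scaling. Pfkfb4 was called present on the white arrays only and was tested because of them. Among all 10264 genes tested, 27.7% were higher in brown and 32.2% in white. By probe set, 13 of the 17 tested for these genes were called towards brown and 2 towards white, where all 19819 tested probe sets gave 24.6% and 29.9%. The median difference of the 9 genes was 1.48, against -0.04 for all genes. Tissue signals did not overlap for any of the 9, a pattern that 67.3% of all genes shared. A called difference of at least 2-fold towards brown was rarer, at 6 of the 9 genes and 10.9% of all genes. In tissue samples like these, fewer cells of a type and less RNA per cell cannot be told apart. Nothing in the labels says how RNA from the 3 mice was paired across tissues, so the p-values measure the spread between samples.

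**Figure D1:**
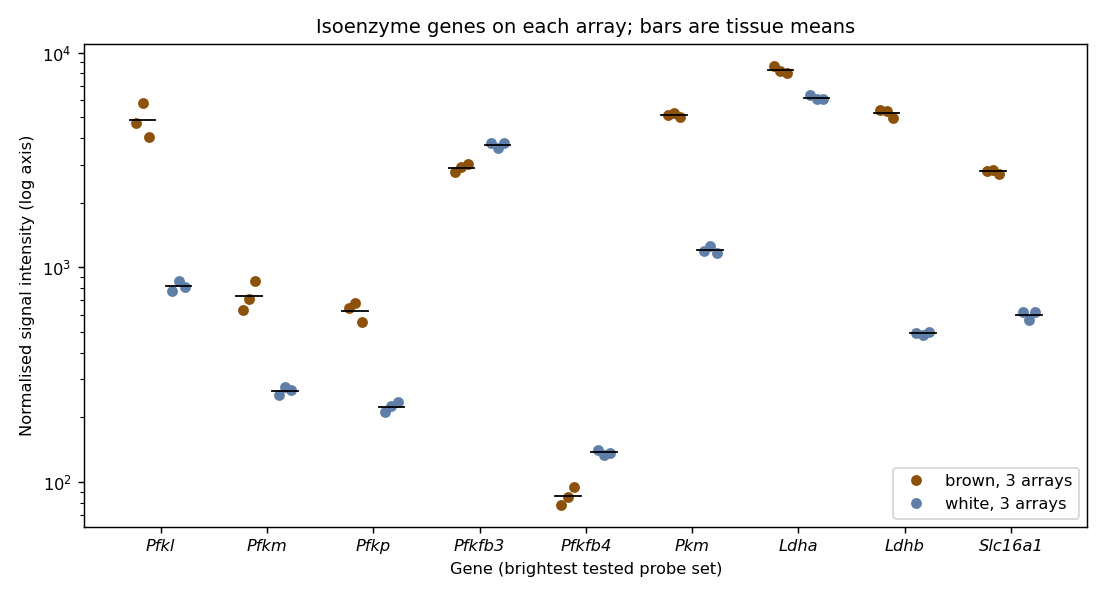
Normalised signal intensity (log axis) of the brightest tested probe set of each gene on the 3 brown arrays (left of each pair) and the 3 white arrays, with a bar at each mean. Pfkl, Pkm, Ldhb and Slc16a1 stand far higher in brown, Ldha differs less, and Pfkfb3 and Pfkfb4 are lower in brown.

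The liver-type subunit gave the widest tissue difference among the phosphofructokinase genes. Pfkl had signals of 4720, 5794 and 4047 on the brown arrays, against 776.6, 866.4 and 811.4 on the white arrays. The tissues were far apart, and the brown arrays spread more than the white ones, with the highest on brown replicate 2, the array with the highest actin ratio. The difference was 2.55 (interval 2.30 to 2.81, adjusted p = 5.02e-08). Without brown replicate 2 it was 2.37. A second Pfkl probe set gave 2.43 (2.25 to 2.61), and the third, dimmer at 213 ± 62.5 in brown and 62.4 ± 7.01 in white, gave 1.73 (1.21 to 2.25). All 3 were called higher in brown.

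Pfkm, the subunit that skeletal muscle uses almost alone, had signals of 632.4, 712.6 and 859.2 in brown, against 252.7, 275.7 and 268.4 in white. Every brown array lay above every white array. The difference was 1.46 (1.19 to 1.72, adjusted p = 3.56e-06). Interscapular fat lies on muscle, so muscle markers were read beside it. Of 16 markers, 11 were called present on no brown array and 13 on no white array, among them Ckm, Mb, Myh2 and Mylpf on no array of either tissue. Only 3 were tested, and Myl1 alone was called, higher in brown, with 844.9, 1053 and 1134 in brown, against 392.0, 253.4 and 272.7 in white. Acta1 was dimmer in brown without being called (81.6 ± 72.7 in brown and 180 ± 38.0 in white, -2.51, adjusted p = 0.122). Casq1 was brighter in brown and not called either (174 ± 88.0 in brown and 93.7 ± 11.8 in white, 0.78, adjusted p = 0.0538). The summed signal of the 16 markers was 1606, 2069 and 1535 on the brown arrays, against 904.3, 820.1 and 795.3 on the white arrays. Myl1 was the largest single part of it on every array, so the sum largely repeats the Myl1 difference. Among the brown arrays, Pfkm and Myl1 were both highest on replicate 3, where Acta1 was lowest (2.159). The sum, to which probe sets called absent also add, was lowest there too. The part of muscle in the Pfkm difference was not tested.

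Pfkp, the platelet-type subunit found in brain and many proliferating cells, had signals of 643.9, 677.5 and 554.2 in brown, against 210.8, 224.8 and 234.5 in white. Brown was again higher on every array, by 1.48 (1.24 to 1.72, adjusted p = 1.44e-06). Its other probe sets were dim. One was called present on 2 brown arrays and 1 white array and gave 0.94 (0.39 to 1.49, adjusted p = 0.00887). The last, present on 1 brown array and 2 white arrays, gave 0.27 (-0.41 to 0.95) with overlapping signals and was not called.

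All 3 subunit genes were higher in brown, and by unequal amounts. The log2 signal ratio of Pfkl to Pfkm was 2.90, 3.02 and 2.24 on the brown arrays, against 1.62, 1.65 and 1.60 on the white arrays. This is a shift of 1.10, or 2.14-fold. For Pfkl over Pfkp the shift was 1.07, with 2.95 ± 0.130 in brown and 1.87 ± 0.078 in white (SD, n = 3 each). Neither ratio overlapped between tissues. In each case the exact two-sided permutation p was 0.1, the smallest that 3 arrays against 3 allow, and 0.125 after adjustment over the 5 pairs of isoenzymes compared. The ratio of Pfkp to Pfkm overlapped between tissues (shift 0.02, exact permutation p = 1), with 0.03, -0.07 and -0.63 in brown and -0.26, -0.29 and -0.20 in white. Brown replicate 3 alone lay below the white arrays, and without it the shift was 0.23.

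**Figure D2:**
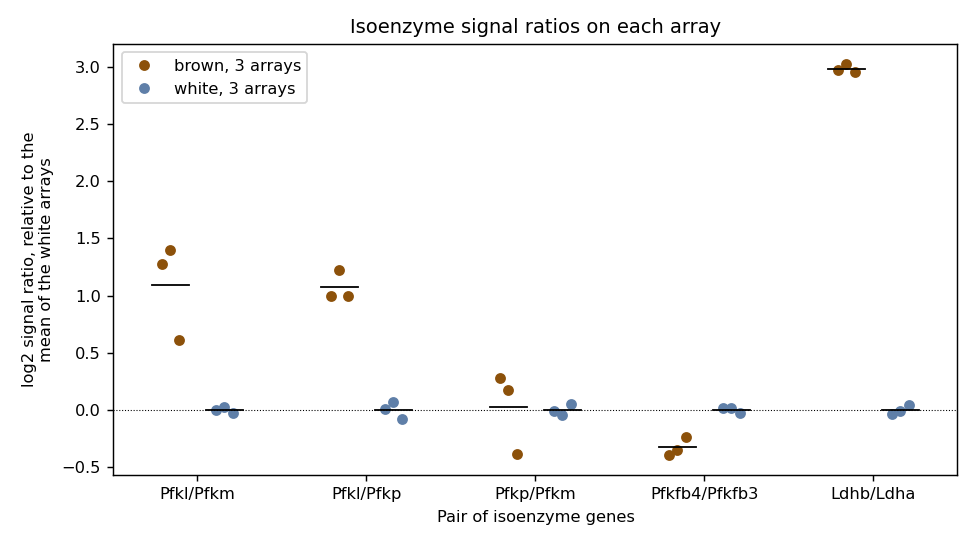
Log2 signal ratio of each pair of isoenzyme genes on the 3 brown arrays (left) and the 3 white arrays (right), drawn relative to the mean of the white arrays, with bars at the means. The Ldhb/Ldha ratio is shifted by 2.98 towards Ldhb in brown and the Pfkl ratios by 1.07 and 1.10 towards Pfkl, while Pfkp/Pfkm overlaps. Pfkfb4 was called absent in brown, so the brown Pfkfb4/Pfkfb3 points are no measured ratio.

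The bifunctional regulators Pfkfb3 and Pfkfb4 were called in the other direction, but the Pfkfb3 call did not hold under every setting. Pfkfb3, the inducible form with high kinase activity, had signals of 2777, 2926 and 3024 in brown, against 3779, 3581 and 3776 in white. The tissues did not overlap, but the distance was small: -0.35 (-0.47 to -0.23, adjusted p = 0.000293), which became 0.10 and was no longer called (adjusted p = 0.162) under median centring of the arrays. The second Pfkfb3 probe set overlapped between tissues at 119 ± 15.0 in brown and 115 ± 27.0 in white, with a difference of 0.07 (-0.38 to 0.53, adjusted p = 0.781). With the mean of both probe sets Pfkfb3 was not called (-0.14, adjusted p = 0.247).

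Pfkfb4, a form first known from testis, was called absent on all 3 brown arrays and present on all 3 white arrays. Its signals were 78.03, 85.08 and 94.95 in brown, against 141.0, 133.9 and 136.8 in white. The listed signals were 1.6-fold higher in white (log2 difference -0.68, -1.01 to -0.35, adjusted p = 0.00327). Pfkfb4 met the filter for testing through its white arrays alone. Its limma interval and p therefore compare white signals with brown background and are no independent support for the difference. Pfkfb4 stayed on the white side under the other scalings (-1.22 to -0.77) and with 64 signal units added (-0.425). Because Pfkfb4 was not above background in brown, its ratio to Pfkfb3 is not measured there. The shift computed from the listed signals was -0.33 and ran from -0.88 to -0.08 over the settings tried, so no size is given for it. White fat also held more macrophage signal. All 10 macrophage markers were higher there, and their summed signal was 2945 to 3455 in brown and 19080 to 19910 in white. The 6 mesothelial markers were all higher in white as well (166.5 to 223.0 in brown and 2103 to 2513 in white). Of the 7 endothelial markers 4 were higher in white and 3 were not called (2144 to 2309 in brown and 2873 to 3007 in white). The part of these cells in the Pfkfb3 and Pfkfb4 differences was not tested.

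Pkm, which encodes the M1 and M2 splice forms of pyruvate kinase, had 5111, 5228 and 5010 in brown, against 1186, 1261 and 1162 in white. The arrays of each tissue lay close together and the tissues were 4.25-fold apart, a difference of 2.09 (1.97 to 2.21, adjusted p = 1.77e-09). A single probe set was annotated to Pkm by gene, and the annotation does not say which splice form it reads. The 4 factors of a list that act on this splicing choice were measured. Ptbp1 (785 ± 124 in brown and 1068 ± 84.2 in white), Hnrnpa2b1 (1263 ± 32.6 in brown and 2060 ± 163 in white) and Srsf3 (401 ± 42.5 in brown and 501 ± 23.7 in white) were higher in white, at -0.45, -0.70 and -0.33, and the median of the 4 was -0.39. Hnrnpa1 was not called (353 ± 4.66 in brown and 357 ± 33.9 in white), but was called higher in white with the deposited scaling (-0.47, adjusted p = 0.00157), with spike-in scaling (-0.46, adjusted p = 0.018) and with the mean over its probe sets (-0.31, adjusted p = 0.0406). Srsf3 lost its call without brown replicate 1 or 2 or white replicate 2 or 3 (adjusted p up to 0.0698). Read from their brightest probe sets with plain _at names, Hnrnpa2b1 and Srsf3 gave 0.17 each and were not called. Pklr, the liver and red cell pyruvate kinase gene, was dim but higher in brown, with 113.7, 210.8 and 120.0 in brown, against 53.07, 77.00 and 58.19 in white (1.20, adjusted p = 0.00299). Of 3 erythroid markers with a probe set, Alas2 and Slc4a1 were tested and not called by limma (adjusted p = 0.0715 and 0.433), with Alas2 under 0.05 before adjustment. The summed signal of all 3, which includes the untested Hba-a1, was 330.6 to 414.7 in brown and 247.8 to 332.1 in white.

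The lactate dehydrogenase pair differed most. Ldhb had signals of 5422, 5361 and 4951 on the brown arrays, against 494.9, 481.5 and 498.1 on the white arrays. Within each tissue the arrays were close, and brown was 10.7 times as bright: 3.41 (3.28 to 3.55, adjusted p = 3.86e-10). Of all tested probe sets, 98.4% differed by less in either direction. The other 3 Ldhb probe sets gave 3.37, 3.40 and 3.43, so that all 4 nearly coincided.

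Ldha, the partner gene, had 8671, 8242 and 8018 in brown, against 6356, 6084 and 6056 in white. The tissues did not overlap, and the difference was 0.43 (0.33 to 0.53, adjusted p = 2.22e-05), or 1.35-fold, with 0.96 under median centring. RefSeq lists pseudogenes of both Ldha and Ldhb, and the array files do not say whether these probe sets also bind them. The log2 signal ratio of Ldhb to Ldha was -0.68, -0.62 and -0.69 on the brown arrays, against -3.68, -3.66 and -3.60 on the white arrays. It was 7.91-fold higher in brown, a shift of 2.98 (exact permutation p = 0.1, the smallest possible, and 0.125 adjusted over the 5 pairs). Across the scalings, left-out arrays and probe set averages tried, the shift stayed between 2.73 and 3.06.

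**Figure D3:**
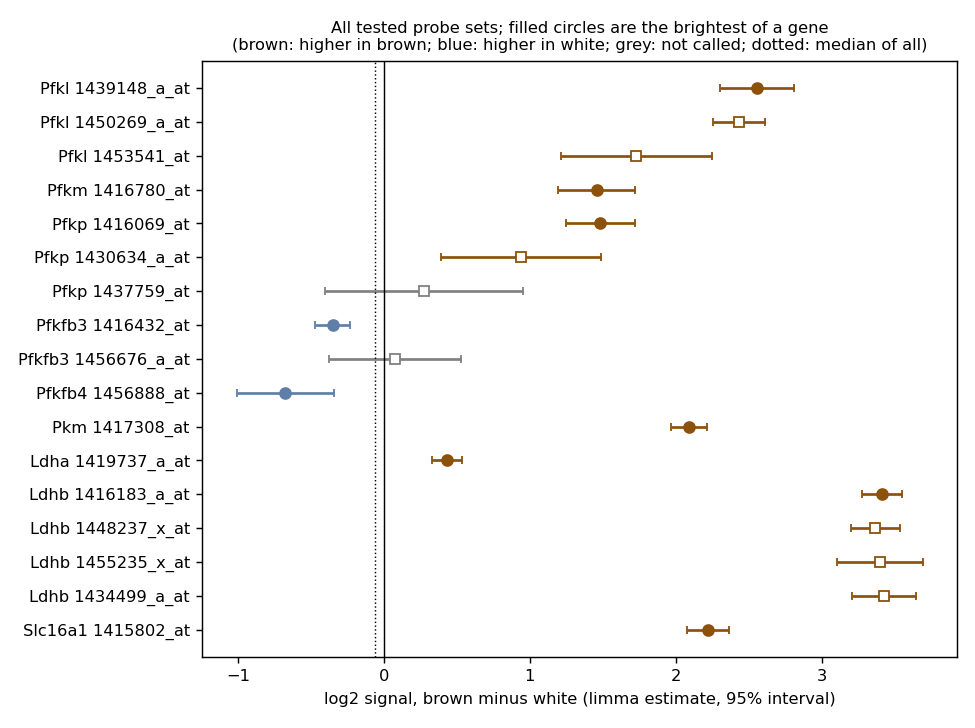
Log2 signal difference (brown minus white) with its 95% interval for each of the 17 tested probe sets; filled circles mark the brightest of each gene. The 4 Ldhb probe sets lie together near 3.4, the Pfkl probe sets spread over 1.73 to 2.55, and a dim Pfkp and a dim Pfkfb3 probe set include 0.

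The promoters of the lactate dehydrogenase genes and of Pfkl are shown because the Ldhb to Ldha ratio and Pfkl carry the isoenzyme contrasts described above. The windows are from RefSeq (GRCm38.p6) and run from 250 bases before to 50 bases after a start site. Capitals mark any of 5 motifs searched on both strands. The core of the hypoxia response element, ACGTG, was found in 19.6% of all 32851 RefSeq windows of this length. The E-box, CACGTG, which contains that core on both strands, was found in 7.15% of the same windows. The site of estrogen-related receptors, AAGGTCA, was found in 4.72% and the GC box, spelled GGGCGG, in 35.7% of all windows. The TATA box, spelled TATAAA, was found in 13.6% of all windows. All 10 genes matched a window by symbol, with 19 windows in all.
Ldhb (chr6:142507908-142508207, minus strand): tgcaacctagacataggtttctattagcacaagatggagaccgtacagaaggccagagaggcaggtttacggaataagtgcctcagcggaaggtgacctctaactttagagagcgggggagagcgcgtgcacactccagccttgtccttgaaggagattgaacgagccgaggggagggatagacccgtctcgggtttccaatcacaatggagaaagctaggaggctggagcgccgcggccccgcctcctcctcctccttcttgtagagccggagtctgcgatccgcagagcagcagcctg
Ldha (chr7:46845554-46845853, plus strand): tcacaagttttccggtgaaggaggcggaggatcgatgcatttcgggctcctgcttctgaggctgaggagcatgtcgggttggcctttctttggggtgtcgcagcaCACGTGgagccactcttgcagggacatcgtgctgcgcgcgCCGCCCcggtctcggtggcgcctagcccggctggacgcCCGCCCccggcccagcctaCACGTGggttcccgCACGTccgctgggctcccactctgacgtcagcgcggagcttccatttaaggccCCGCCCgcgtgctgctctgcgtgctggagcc
Pfkl (chr10:78009758-78010057, minus strand): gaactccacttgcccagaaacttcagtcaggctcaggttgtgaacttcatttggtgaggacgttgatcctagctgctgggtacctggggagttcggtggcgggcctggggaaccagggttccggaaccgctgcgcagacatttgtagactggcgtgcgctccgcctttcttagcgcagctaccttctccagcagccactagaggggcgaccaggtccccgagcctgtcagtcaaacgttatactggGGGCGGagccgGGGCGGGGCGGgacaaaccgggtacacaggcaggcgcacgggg
The Ldha window held 2 E-boxes, whose first bases lie at -145 and -48 from the start site, a further hypoxia response core at -34 and 3 GC boxes. A second Ldha window held no motif. The Ldhb window held none of the 5, and the Pfkl window held 3 GC boxes around the start site. Of the 19 windows, 7 held a hypoxia response core (in Pfkm, Pfkfb3, Pkm, Ldha and Slc16a1), 4 an E-box and 9 a GC box. The estrogen-related receptor site and the TATA box were found in 1 Pfkfb1 window.

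Slc16a1 had signals of 2814, 2848 and 2717 in brown, against 615.4, 566.6 and 618.4 in white. Brown was 4.66 times as bright, with narrow spread in both tissues: 2.22 (2.08 to 2.36, adjusted p = 3.7e-09). A second Slc16a1 probe set had no present call on any array (10.6 ± 6.28 in brown and 3.87 ± 2.34 in white) and was not tested. Bsg, which encodes basigin, the chaperone that brings this transporter to the membrane, was higher in brown as well, at 2233 ± 187 in brown and 1470 ± 42.3 in white (0.60, adjusted p = 5.08e-05). Emb, encoding embigin, which pairs with the Slc16a7 product, ran the other way with 53.3 ± 15.1 in brown and 137 ± 21.5 in white (-1.39, adjusted p = 0.000848). So did the transporter gene Slc16a7 (98.6 ± 23.1 in brown and 205 ± 18.2 in white, -1.08, adjusted p = 0.000816). Slc16a3, whose product exports lactate from glycolytic cells, was called present on no array, as were Slc16a8 and the testis gene Ldhc.

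Over the whole lactate and pyruvate list, with Bsg, Emb and Slc16a7, 6 genes could be tested: 3 were called towards brown, 2 towards white and 1 missed the threshold, with a median of 0.07. Ldhd, the mitochondrial D-lactate dehydrogenase, had 1331, 1256 and 1266 in brown, against 217.5, 228.2 and 242.8 in white. This 5.6-fold difference (2.49, adjusted p = 7.35e-09) was the widest of the list. Mpc1, a subunit of the mitochondrial pyruvate carrier, had 6321 ± 478 in brown and 3277 ± 17.2 in white (0.95, adjusted p = 4.51e-07). Hcar1, the lactate receptor of adipocytes, had 297 ± 34.7 in brown and 420 ± 111 in white and was not called (-0.47, adjusted p = 0.0619). It was called higher in white under the deposited scaling (-0.94), median centring (-0.50) and spike-in scaling (-0.93), and without white replicate 1 (-0.71, adjusted p = 0.00197). It was also called with present calls on all 6 arrays (adjusted p = 0.0476) and with 64 signal units added (adjusted p = 0.0469).

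Of the other glycolytic enzymes, 6 of 13 could be tested, and 5 were higher in brown while 1 was not called. Their median was 0.87. Pgam1, phosphoglycerate mutase, had 2850 ± 154 in brown and 1145 ± 42.3 in white (1.32), and Pgk1, phosphoglycerate kinase, had 9438 ± 327 in brown and 4217 ± 180 in white (1.16). Aldoa and Tpi1 were higher by 0.52 each. The size depended on the probe set: Pgk1 gave 1.87 with the mean over its probe sets and 2.34 from a plain _at probe set, and Aldoa gave 1.17 with the mean. Eno3, the muscle enolase, was not called (109 ± 5.91 in brown and 75.0 ± 20.7 in white, adjusted p = 0.052). It was called without white replicate 2 (0.74, adjusted p = 0.0266), with the replicate block (adjusted p = 0.0462), with present calls on all 6 arrays (0.0375), with 64 signal units added (0.0399) and with the mean over probe sets (0.0407). With the deposited scaling its difference was 0.05 (adjusted p = 0.866) and with spike-in scaling 0.06 (adjusted p = 0.854). Aldoc, Pgam2 and Eno2 were called present on no array.

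Among genes that turn over fructose bisphosphates, Fbp2, the muscle-type fructose bisphosphatase, which runs the phosphofructokinase step backwards, was called absent on all white arrays. It had 338.1, 411.7 and 335.4 in brown, against 35.64, 52.79 and 36.36 in white. These listed signals were 8.8-fold higher in brown (3.14, 2.72 to 3.56, adjusted p = 4e-07), and the difference was 2.01 with 64 signal units added. Fbp2 met the filter for testing through its brown arrays alone. Its limma interval and p therefore compare brown signals with white background and are no independent support for the difference. Tigar, a phosphatase that removes the activator of phosphofructokinase, was higher in brown at 0.64 (172 ± 10.4 in brown and 110 ± 14.3 in white, adjusted p = 0.00411). It was not called with the deposited scaling (0.10, adjusted p = 0.567) or with spike-in scaling (0.11, adjusted p = 0.649). Pfkfb2 was not called (66.1 ± 8.77 in brown and 81.6 ± 2.71 in white, -0.31, adjusted p = 0.175), and it was called higher in white with the deposited scaling (-0.82) and spike-in scaling (-0.81). Fbp1, the liver form, was present on 2 white arrays and no brown array and was not tested. Of the 3 genes tested on this list, 2 were higher in brown and 1 was not called, with a median of 0.64. With present calls required on all 6 arrays only Pfkfb2 could be tested, and it was not called (limma adjusted p = 0.142).

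**Figure D4:**
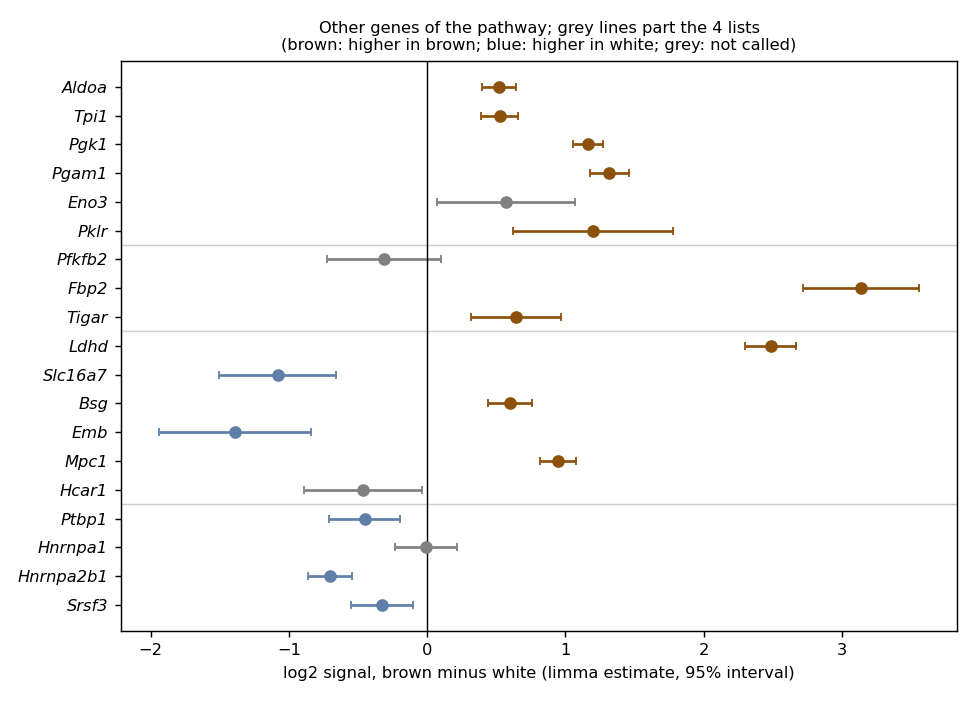
Log2 signal difference (brown minus white) with its 95% interval for the 19 tested genes of the other glycolytic enzymes, fructose bisphosphate turnover, lactate and pyruvate handling and Pkm splicing factors, from top to bottom. Fbp2 at 3.14 and Ldhd at 2.49 lie farthest to the right, and Emb and Slc16a7 farthest to the left. Fbp2 was called absent on all white arrays.

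The scaling of the arrays moved the differences, and by unequal amounts. The median difference of all genes was -0.04 after quantile normalisation, -0.50 with the deposited signals, -0.05 when arrays were centred on medians and -0.48 when scaled on spike-ins. Relative to that median, Ldhb stood at 3.46 after quantile normalisation and at 3.74 under the other 3 scalings, Pfkl at 2.60 and 2.91, and Ldha at 0.47 and 1.01, while Pfkp stood at 1.52 under all 4. Pfkfb3 lay at -0.31 below the median gene after quantile normalisation and at 0.15 above it under the others, so its direction relative to other genes depended on the scaling. Pfkfb4 lay below the median gene under all 4, at -0.63 and -0.72.

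**Figure D5:**
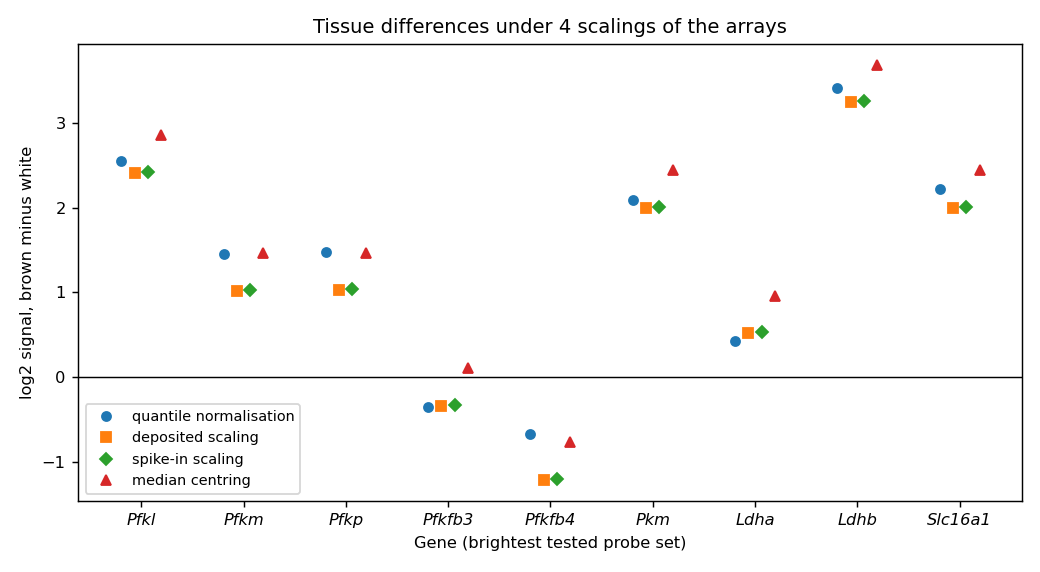
Log2 signal difference (brown minus white) of each gene under 4 scalings of the arrays. Pfkfb3 changes sign with median centring, and the other 8 genes keep theirs.

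Over the 6 arrays, the genes whose centred log2 signals lay nearest to Ldhb were Acaa2 (Euclidean distance 0.11), a thiolase of fatty acid oxidation with 8625 ± 203 in brown and 809 ± 24.5 in white, the fatty acid elongase Elovl6 (0.21) and Mcrip2 (0.23). Nearest to Pfkfb4, whose brown signals were all called absent and are not above background, were Aida (0.13), Hnrnpr (0.14) and Qk (0.14). With 2 tissues such nearness mainly reflects a like tissue difference, which for these was 3.42 to 3.47 beside Ldhb and -0.69 to -0.62 beside Pfkfb4.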

How the data were processed

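Per the file headers, the array files that the authors deposited hold, for each of 45101 probe sets, a linear signal intensity, a present, marginal or absent call and its detection p-value. No source used here gives the software or scaling behind them. The authors' deposited series table of intensities entered no result, as each tissue's columns resemble the other tissue's array files. Its columns named for brown had Spearman correlations of 0.800 to 0.809 with brown array files and 0.871 to 0.887 with white ones, and Ucp1 was 22.4 to 93.9 in them. It is on a linear scale, its centring is unknown, and its column medians were 64.3, 62.9 and 63.8 for brown and 56.7, 56.8 and 55.9 for white.

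Control probe sets (64) were dropped. Of the other 45037, 34945 carried 1 symbol in the platform annotation, 932 several and 9160 none. Log2 signals (0 set to 0.1) were quantile-normalised between arrays, and limma 3.58.1 under R 4.3.3 (lmFit, then eBayes with a mean-variance trend) tested 19819 probe sets, adjusting p-values over all of them by Benjamini-Hochberg. The rule named every member, up to 3 called genes each way per list, Ucp1, Lep and Actb, and the 3 genes nearest to 2 members; other list genes were named after their values were seen. For Pfkfb4 and Fbp2, absent on every array of a tissue, the fold is that of the listed signals and no lower bound. Those signals all lay above the lowest present signal of their arrays. Members and lists were chosen with earlier results of these data known, which already showed Ldhb, Pfkl, Pkm and Pfkfb3. The fit was tested on simulated data. Precision is limited by 3 arrays per tissue. Alternatives changed the scaling, filter, pseudocount, trend, replicate block, probe set choice and left-out arrays.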

Additional observations from a re-analysis of the deposited data

How the results depend on the processing

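The 9 genes gave 141 values under other settings, and 139 kept direction and side of the threshold. The exceptions were Pfkfb3 with median centring (0.10) and with the mean over its probe sets (-0.14, adjusted p = 0.247); the cause was not tested. The 7 genes higher in brown remained 7 in number except without probe sets ending in _a, _s or _x, where 5 of 7 tested genes were, because Ldha and Ldhb have no other kind. The number higher in white was 1 with median centring, with present calls required on all 6 arrays (Pfkfb4 is then not tested) and with the mean over probe sets; by probe set, the 2 higher in white became 1 under median centring and with present calls on all 6. The background moved more: with deposited signals 14.9% of all genes lay towards brown and 55.8% towards white, with spike-in scaling 13.4% towards brown and 50.7% towards white, and without the detection filter 17.4% towards brown and 18.3% towards white. The Pfkp/Pfkm ratio had no settled direction, at -0.009 with 64 signal units added, -0.56 with the mean over probe sets and -0.10 to 0.23 with single arrays left out. Among list genes, Emb gave -0.78 and Fbp2 2.01 with 64 signal units added, Hnrnpa1 ranged over -0.059 to 0.066 with single arrays left out (0.066 without white replicate 2), Pfkfb2 to 0.26 with the mean over probe sets, and Hnrnpa2b1 and Srsf3 to 0.17 each without probe sets ending in _a, _s or _x. Labels give both tissues replicates 1 to 3. They do not say that a number marks 1 mouse, so the number was not taken to pair mice. Deviations of same-numbered arrays correlated at 0.017, -0.014 and -0.046, and 1 of 6 arrays was closest to its own number. With 3 arrays per tissue this cannot decide whether the samples were paired. With the replicate number as a block, 7 of the 9 were higher in brown fat and 2 in white fat, as without it. Absent calls limit Pfkfb4 in brown and the minor Pfkp probe sets.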
